A study of Mus musculus with 6 samples.

Results

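Regulatory T cells (Tregs) restrain other lymphocytes partly through molecules that they secrete or carry on their surface, and 10 genes for such suppressive molecules were followed here. They are 2 ectoenzymes of adenosine production (Entpd1 and Nt5e), 3 products of cytotoxic granules (Gzmb, Gzma and Prf1), and 5 secreted or surface-bound mediators (Fgl2, Lgals9, Ebi3, Il10 and Areg). The members were taken by symbol, and all 10 were among the 23725 genes of the count table. The samples were 6 libraries of lymph node Tregs from C57Bl/6 mice, all of them immunised with MOG (myelin oligodendrocyte glycoprotein), a surface protein of the myelin sheath. Wild-type (WT) mice gave 3 of the libraries, and the other 3 came from a whole-body MOG knockout (MOG KO), so both groups received the antigen and only WT mice also make it themselves. Each library was made from the RNA of 500 cells. The sources used here do not give age, sex, the sorting gate or whether each replicate is a separate mouse. The p-values therefore reflect only library-to-library spread, which may be in part technical.

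The molecules act by different routes. CD39, the product of Entpd1, splits extracellular ATP and ADP to AMP, and CD73, the product of Nt5e, converts AMP to adenosine, which dampens T cells through the receptor encoded by Adora2a. Perforin, from Prf1, opens target cell membranes to granzymes, the serine proteases from Gzma and Gzmb. Fgl2 is a fibrinogen-like protein that Tregs secrete, galectin-9 (from Lgals9) is a sugar-binding protein described as a ligand of the receptor TIM-3, Ebi3 is a subunit of the cytokines IL-27 and IL-35, Il10 encodes IL-10, and amphiregulin, from Areg, is a growth factor that Tregs use in tissue repair.

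Counts per library totalled 2717969 to 4472549, and values are given in RPM, the reads of a gene per 1000000 counted reads of its library. Here a gene counts as present from 10 RPM upward. A count of 0 allows up to 3 counts, which is 0.671 to 1.1 RPM depending on the library. These limits cover counting error only. Mog itself, the targeted gene, had 1 count in WT replicate 1 and 0 counts in the other 5 libraries, so it does not check the genotype labels. In WT replicate 3, 2701 genes were present (elsewhere 3265 to 4440), and in it the Treg lineage factor gene Foxp3 was at 8.22 RPM (326 to 690 RPM elsewhere) and Cd4 at 170 RPM (419 to 722 RPM elsewhere). Ctla4 was also low there, at 74.3 RPM (450 to 612 RPM elsewhere). Ikzf4 was at 0 RPM there and in MOG KO replicates 2 and 3, and at 32.8 to 546 RPM elsewhere. The remaining Treg markers were not low in that library. Ikzf2 was at 1294 RPM (580 to 1185 RPM elsewhere) and Il2ra at 708 RPM (371 to 849 RPM). Cd3e was at 273 RPM (254 to 448 RPM) and Tnfrsf18 at 236 RPM (226 to 356 RPM). All 8 Treg markers examined were present in at least 1 library and 6 of them in all 6. Library values below run in the order of replicates 1, 2 and 3.

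Of the 10 genes, 6 were present in at least 1 library and 4 in none. Fgl2 was present in all 6 libraries, Nt5e, Gzmb and Lgals9 in 5 each, Ebi3 in 3 and Entpd1 in 1. Gzma, Prf1, Il10 and Areg were at or under the counting limit throughout. In bulk libraries, fewer cells making a transcript and less of it per cell cannot be told apart. Presence and absence here describe the reads of a library. Whether transcripts were lost while RNA was copied into cDNA and amplified was not tested. Among all genes measured, 7909 were present somewhere, of which 8.9% were present in 6 libraries, 8.51% in 5 and 32.1% in 1. The present and absent states of the 6 detected members were well separated. Of their 36 values, 25 were at 40.4 RPM or more and the other 11 at 2.83 RPM or less. Of the values of the 7909 genes, 9.18% fell between those bounds. The bounds were taken from the members' own values, so no member value could fall between them. By library, 5, 5 and 3 members were present in WT and 4, 5 and 3 in MOG KO, so each library lacked at least 1 of the 6 detected members.

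**Figure D1:**
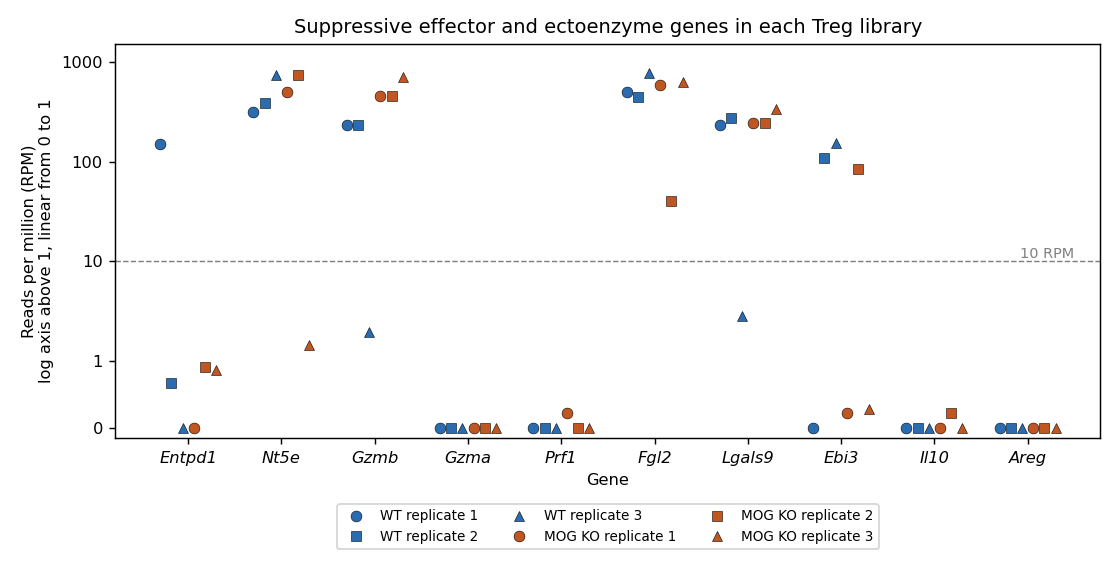
RPM of each of the 10 genes (x axis) in each library (points, blue for WT and orange for MOG KO, shape for the replicate number), on an axis that is logarithmic above 1 and linear from 0 to 1. The dashed line marks 10 RPM. Fgl2 lies above it in all 6 libraries and Gzma, Prf1, Il10 and Areg lie below it in all 6.

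**Figure D2:**
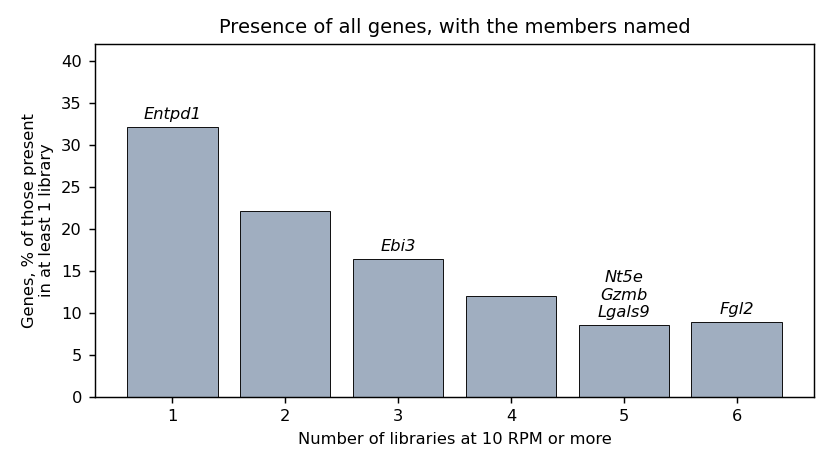
Bars give the percentage of the 7909 genes present somewhere (y axis) by the number of libraries in which they were present (x axis), and the members are written above the bar of their own number. Fgl2 stands with the 8.9% present in 6 libraries and Entpd1 with the 32.1% present in 1.

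The ectoenzymes of adenosine production differed from each other. Nt5e (Entrez 23959, protein-coding, GRCm38 chromosome 9, 88327197 to 88372092) was read at 311, 381 and 734 RPM in the WT libraries and at 493, 726 and 1.45 RPM in the MOG KO libraries. It was thus present in every library but MOG KO replicate 3, and the groups overlapped. Entpd1 (Entrez 12495, protein-coding, chromosome 19, 40612366 to 40741602) reached 148 RPM in WT replicate 1, from 403 counts. In the other 5 libraries it had 0 to 4 counts, at most 0.917 RPM. WT replicate 1 was therefore the one library with both enzymes present, and MOG KO replicate 3 the one with neither. The fitted log2 fold change of Nt5e, MOG KO minus WT, was -0.33 ± 1.53 (SE, n = 3 per group, 95% interval -3.89 to 3.22, adjusted p = 1 in edgeR). The sign of Nt5e rested on single libraries, with 0.27 without WT replicate 3 and 0.26 without MOG KO replicate 3. Entpd1 did not pass the filter on low counts and was not tested.

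Of the 3 granule genes, 1 was present and the others were at 0 or 1 count in all. Gzmb (Entrez 14939, protein-coding, chromosome 14, 56258838 to 56262260) was at 234, 230 and 1.98 RPM in the WT libraries, and MOG KO libraries gave 456, 449 and 693 RPM. Every MOG KO library lay above every WT library, with means of 533 ± 139 and 155 ± 133 RPM (SD, n = 3 each). Of the 4088 genes tested, 5.97% had all MOG KO libraries above all WT libraries and 4.57% had them all below. Gzmb was the only one of the 5 tested members without overlap. Its log2 fold change was 1.79 ± 1.54 (SE, n = 3 per group, 95% interval -1.81 to 5.39, adjusted p = 1 in edgeR), so the difference did not pass the test. An exact two-sided permutation test of the means gave p = 0.1, the smallest that 3 libraries against 3 allow. Any gene without overlap gets this value, so the test adds nothing to the non-overlap. Without WT replicate 3, in which Foxp3 was also low, the fold change was 1.22, with both remaining WT libraries below every MOG KO library (edgeR adjusted p = 0.817).

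Gzma (Entrez 14938, protein-coding, chromosome 13, 113093825 to 113100981) had 0 counts in all 6 libraries, which allows up to 0.131 RPM over their pooled counts. Prf1 (Entrez 18646, protein-coding, chromosome 10, 61297833 to 61304680) had 1 count, in MOG KO replicate 1. The remaining 8 granzyme genes of the granule list had 0 counts in all. Markers of other cytotoxic lymphocytes, the cell types in which perforin and granzyme A are abundant, were near 0 as well. Of 12 such markers, including Cd8a, Cd8b1, Ncr1 and Eomes and sharing Gzmk, Gzmm and Nkg7 with the granule list, 11 had 0 counts, and their summed level was 0 to 0.368 RPM in WT and 0 to 0.29 RPM in MOG KO.

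Lgals9 (Entrez 16859, protein-coding, chromosome 11, 78962974 to 78984946) was present in the same 5 libraries as Gzmb. It was read at 232, 276 and 2.83 RPM in WT and, in MOG KO, at 246, 245 and 332 RPM. Apart from WT replicate 3 these values were the most even of the members, 266 ± 40.3 RPM (SD, 5 libraries), a spread of 15.1% of the mean where counting error alone gives 3.18%. The same 5 libraries spread by 46.5% for Gzmb. The fold change of Lgals9 was 0.7 ± 1.78 (SE, n = 3 per group, 95% interval -3.44 to 4.84, adjusted p = 1 in edgeR), and it was 0.14 without WT replicate 3. A total of 247 genes were present in every library but WT replicate 3, out of 673 present in exactly 5, more than for any other single library (43 to 120). The upstream sequences of Gzmb and Lgals9 are shown because they were read in the same libraries, and that of Gzma because this relative of Gzmb was not read.

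The 250 bases upstream of the RefSeq start (GRCm38.p6, minus strand for all, 5′ to 3′) were searched on both strands for a TATA box (TATAAA), a RUNX motif (TGTGGT), an AP-1 motif (TGANTCA), a STAT motif (TTCNNNGAA), a forkhead motif (TGTTTAC) and an ETS motif (GGAAGT), and matches are in capitals. The windows are chr14:56262335-56262584 for Gzmb, chr11:78984925-78985174 for Lgals9 and chr13:113100982-113101231 for Gzma. GENCODE places the start of Gzmb further downstream than RefSeq does. It places that of Lgals9 further upstream, at 78984946, so the last bases of the Lgals9 window lie inside the GENCODE gene.
Gzmb: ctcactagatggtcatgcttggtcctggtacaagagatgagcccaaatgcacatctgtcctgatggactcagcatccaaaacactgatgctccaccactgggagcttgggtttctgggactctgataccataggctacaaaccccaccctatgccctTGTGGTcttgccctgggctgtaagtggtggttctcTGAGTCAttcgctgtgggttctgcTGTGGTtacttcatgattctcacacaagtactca
Lgals9: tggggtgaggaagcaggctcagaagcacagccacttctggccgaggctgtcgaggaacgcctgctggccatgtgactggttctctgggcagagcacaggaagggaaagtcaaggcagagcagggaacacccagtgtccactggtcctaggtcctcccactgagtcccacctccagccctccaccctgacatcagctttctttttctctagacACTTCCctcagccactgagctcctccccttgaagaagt
Gzma: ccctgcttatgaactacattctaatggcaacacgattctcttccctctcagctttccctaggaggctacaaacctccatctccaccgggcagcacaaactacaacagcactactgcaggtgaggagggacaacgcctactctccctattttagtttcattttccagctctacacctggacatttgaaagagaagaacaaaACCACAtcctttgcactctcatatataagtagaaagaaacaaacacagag
Gzmb held 2 RUNX matches, 93 and 34 bases upstream counted from the first base of the match, and 1 AP-1 match 58 bases upstream. Gzma held 1 RUNX match, on the opposite strand. Lgals9 held 1 ETS match, also on the opposite strand, so Gzmb and Lgals9 shared none of the 6 motifs in this window. No listed motif overlapped another. Of 32851 RefSeq windows of this length, 14% held the RUNX, 6.75% the AP-1, 19.7% the ETS, 12.4% the TATA, 7.02% the STAT and 3.17% the forkhead letters. Matches describe the letters in the window and do not show binding.

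Fgl2 (Entrez 14190, protein-coding, chromosome 5, 21372642 to 21378374) was read in every library, at 500, 440 and 761 RPM in WT and, in MOG KO, at 579, 40.4 and 624 RPM. MOG KO replicate 2 was the low one, 18.9-fold below the highest library, and the groups overlapped. The fold change was -0.55 ± 0.99 (SE, n = 3 per group, 95% interval -2.86 to 1.76, adjusted p = 1 in edgeR) and -0.02 without MOG KO replicate 2.

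Ebi3 (Entrez 50498, protein-coding, chromosome 17, 55952640 to 55957022) alternated between libraries of both genotypes. WT libraries had 0, 109 and 155 RPM and MOG KO libraries 0.231, 84.6 and 0.29 RPM, so 3 libraries held it and 3 did not. The fold change was -1.71 ± 2.95 (SE, n = 3 per group, 95% interval -8.6 to 5.17, adjusted p = 1 in edgeR). Without MOG KO replicate 2, the one MOG KO library that held Ebi3, it was -8.35 (adjusted p = 0.618 in edgeR), and without WT replicate 3 it was -0.88. An antisense gene, Gm16712, overlaps an exon of Ebi3 in the GENCODE annotation. The sources used here do not say whether strand was used in counting, so reads of the pair cannot be told apart. Il12a and Il27, whose products pair with Ebi3 in IL-35 and IL-27, had 0 counts in all 6 libraries.

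Il10 (Entrez 16153, protein-coding, chromosome 1, 131019845 to 131024974) had 1 count, in MOG KO replicate 2. Areg (Entrez 11839, protein-coding, chromosome 5, 91139599 to 91148432) had 0 counts in all 6 libraries, under the same pooled limit of 0.131 RPM as Gzma. Neither passed the filter on low counts, and without that filter the single count of Il10 gave an adjusted p of 0.582 in edgeR. No difference between genotypes was detectable at this depth.

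Levels of different genes were compared per kilobase of annotated exon. Averaged over the 6 libraries, Gzmb led with 240 ± 167 RPM per kilobase (SD, n = 6 for each gene), followed by Lgals9 with 138 ± 70.3, Fgl2 with 130 ± 65.1, Nt5e with 110 ± 69.3, Ebi3 with 50.4 ± 58.4 and Entpd1 with 5.78 ± 13.9. Library ranges of neighbours in this order overlapped for every pair. By group mean Gzmb led in the MOG KO libraries, at 371 ± 96.7, with Lgals9 at 170 ± 31, Fgl2 at 109 ± 85.7 and Nt5e at 102 ± 92.6 RPM per kilobase (SD, n = 3). In WT the order of means was Fgl2 with 150 ± 45, Nt5e with 119 ± 56.7, Gzmb with 108 ± 92.5 and Lgals9 with 105 ± 90.8 (SD, n = 3). WT replicate 3 set that order, with Gzmb at 1.38, Lgals9 at 1.76, Fgl2 at 201 and Nt5e at 184. WT replicate 1 had Gzmb at 163, Lgals9 at 144, Fgl2 at 132 and Nt5e at 77.9. WT replicate 2 had Gzmb at 160, Lgals9 at 171, Fgl2 at 116 and Nt5e at 95.4. Gzmb ranked 136th of 7699 genes with a known length by the mean over both genotypes, Lgals9 410th, Fgl2 460th, Nt5e 614th, Ebi3 1926th and Entpd1 6441st.

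Genotype made no difference past the threshold for any tested member. Across all 4088 tested genes, 0 passed an adjusted p of 0.05 in edgeR (0% called) and 209 had an unadjusted p under 0.05. Limma-voom called 0 genes, with 260 at an unadjusted p under 0.05. DESeq2 called 744 of the 4677 genes to which it gave an adjusted p (15.9%), and 0 of the 5 tested members were among them, with adjusted p-values of 0.834 for Gzmb and 0.999 for each of the other 4. The median log2 fold change was -0.33 over the 5 tested members (2 positive, 3 negative) and 0.06 over all tested genes.

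**Figure D3:**
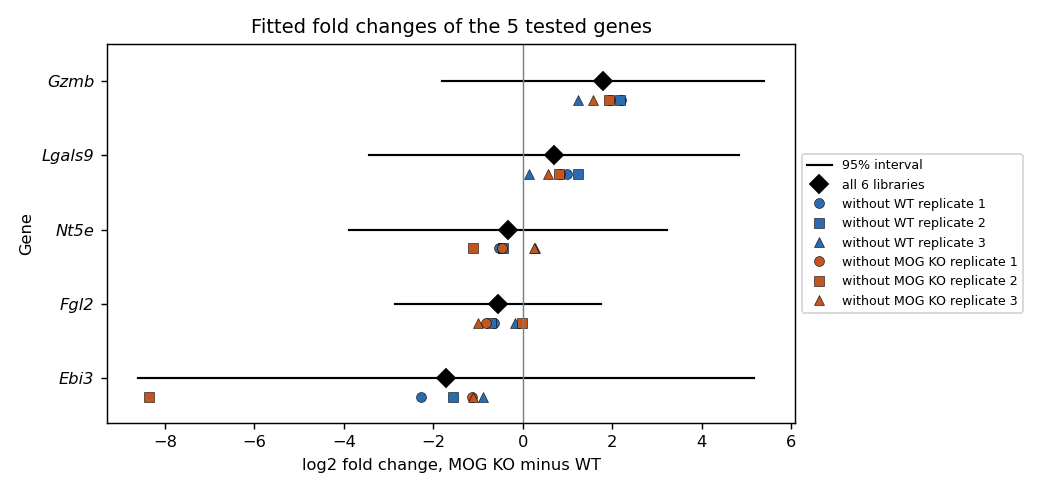
Log2 fold change from edgeR (x axis, MOG KO minus WT) of the 5 tested genes, with black diamonds for the fit on all 6 libraries, lines for its 95% interval and coloured points for fits that leave out 1 library each. All 5 intervals include 0, and Nt5e crosses 0 when WT replicate 3 or MOG KO replicate 3 is left out.

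Partners of the ectoenzymes were each read in some libraries only. Among 26 other genes of the adenosine pathway, 14 were present, in 1 to 4 libraries each, and of 5 tested 0 passed (1 positive, 4 negative, median -1.19). Adora2a, the main adenosine receptor of T cells, was at 369, 144 and 310 RPM in WT, and MOG KO libraries gave 0.231, 0.459 and 276 RPM. Entpd5, a relative of Entpd1, had WT values of 3.31, 234 and 0.567 RPM and MOG KO values of 0.231, 369 and 263 RPM. Ada, which degrades adenosine, had 0 counts.

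Among 27 genes of the granule machinery, 11 were present somewhere and 1 in all 6 libraries, and of 9 tested 0 passed (6 positive, 3 negative, median 0.47). The one present throughout was Srgn, encoding the proteoglycan that packs granule proteins, at 180 to 321 RPM. Rab27a, which guides granules to the membrane, was at 175, 184 and 465 RPM in WT but 2.08, 236 and 1.16 RPM in MOG KO. Ap3b1, a sorting adaptor subunit, was at 213, 124 and 7.94 RPM in WT, with 288, 622 and 4.35 RPM in MOG KO. Cst7, encoding cystatin F, an inhibitor of granule cathepsins, was absent in WT replicate 3 alone, as Gzmb was (0 RPM there and 130 to 211 RPM elsewhere). Cst7 and Srgn were picked after their values were seen.

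Receptors and regulators around IL-10 and IL-35 were better covered, with 17 of 21 genes present somewhere and 5 in all 6 libraries. Of 14 tested 0 passed, with 8 positive and 6 negative and a median of 0.15. Il10rb, a chain of the IL-10 receptor, was present in MOG KO replicates 1 and 3 (339 and 293 RPM) and at 4.78 RPM or less in the other libraries. Stat3, which relays IL-10 signals, had WT values of 741, 332 and 680 RPM against 0.231, 105 and 201 RPM in MOG KO, without overlap. Il27ra, the IL-27 receptor, was the one tested gene of this list with every MOG KO library above WT, at 243, 553 and 361 RPM against 570, 720 and 833 RPM, and is named after its values were seen. Of all tested genes, 5.97% lay above in this way and 4.57% below. Maf, a transcription factor that drives Il10, was present in all 6 libraries at 189 to 421 RPM, beside the single count of Il10.

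Around amphiregulin, 9 of 17 genes were present somewhere and 1 in all 6 libraries, Gata3, and of 5 tested 0 passed (1 positive, 4 negative, median -0.25). Adam10, a membrane protease, had 758, 320 and 733 RPM in WT against 2.31, 0.917 and 383 RPM in MOG KO. Il18r1, a chain of the IL-18 receptor, had 259, 135 and 0.283 RPM against 3.24, 40.8 and 0.58 RPM. The receptor gene for amphiregulin, Egfr, had 0 counts.

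Among 13 relatives and receptors of galectin-9 and Fgl2, 8 were present somewhere and 1 in all 6 libraries, the galectin gene Lgals1, at 141 to 224 RPM. Of 5 tested 0 passed (2 positive, 3 negative, median -0.02). P4hb, a disulfide isomerase that galectin-9 binds on T cells, had 234, 260 and 498 RPM in WT and only 1.62, 2.29 and 1.16 RPM in MOG KO. Its groups did not overlap, as for 4.57% of all tested genes in that direction. The fold change of P4hb was -7.68 ± 2.12 (SE, n = 3 per group, adjusted p = 0.602 in edgeR). Cd44, an adhesion receptor, varied within each genotype (705, 688 and 1.42 RPM against 10.9, 114 and 511 RPM).

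Of 15 other suppressive mediators of Tregs, 13 were present somewhere and 6 in all 6 libraries, and of 10 tested 0 passed (5 positive, 5 negative, median -0.02). The 2 of smallest p were Nrp1, a semaphorin receptor (log2 fold change -1.35 ± 0.65), and Cd274, encoding PD-L1 (-3.44 ± 2.35, SE, n = 3 per group, adjusted p = 1 in edgeR for both). Both had every MOG KO library below WT (4.57% of all tested genes), and Icos had every one above (5.97%). In each of the 6 lists the tested members are those that passed a filter on low counts, so these counts describe the genes read and not the whole lists.

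**Figure D4:**
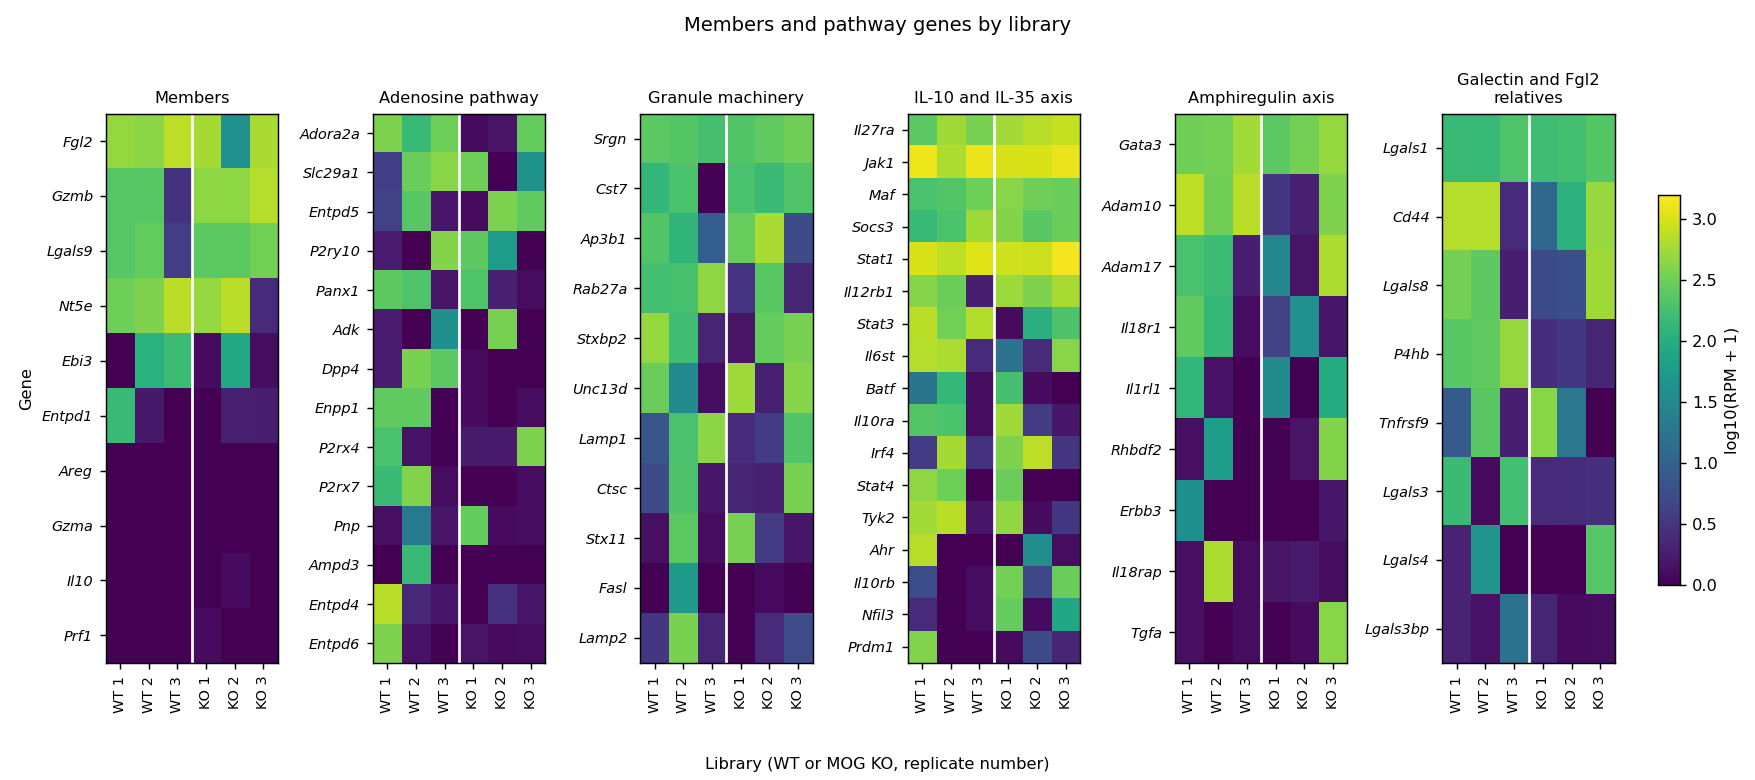
Colour gives log10(RPM + 1) of each gene (rows) in each library (columns, WT left and MOG KO right of the white line), for the 10 members and for the genes of 5 lists that were present in at least 1 library. Rows that are bright throughout, such as Fgl2, Srgn, Maf, Gata3 and Lgals1, are present in all 6 libraries, and most rows switch between bright and dark within a genotype.

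Few markers of other cells were present in any library. Of 9 B cell markers 2 were present, Ms4a1 in WT replicate 3 (87.3 RPM) and Cd79b in WT replicate 2 (205 RPM) and MOG KO replicate 2 (130 RPM), with summed levels of 2.58 to 207 RPM in WT and 0 to 130 RPM in MOG KO. Cd79a, Pax5 and Blnk had 0 counts. These 2 WT libraries and MOG KO replicate 2 are also the 3 that held Ebi3, a gene that activated B cells express, and the part of B cells in the Ebi3 values was not tested. Of 11 myeloid markers 1 was present, Cd68 in MOG KO replicate 2 (188 RPM), with sums of 6.71 to 23.5 RPM in WT and 6.47 to 194 RPM in MOG KO, and Zbtb46 had 0 counts. Other myeloid markers were not raised in that library, with Lyz2 at 3.21 RPM (2.91 to 9.57 RPM elsewhere) and Csf1r at 1.15 RPM (0.894 to 3.77 RPM elsewhere). MOG KO replicate 2 also had the lowest Fgl2, a gene that macrophages express too. The part of myeloid cells in the Fgl2 values was not tested. Of 8 stromal, endothelial and erythroid markers, Pecam1 (1.98 to 461 RPM) and Hbb-bs (2.91 to 19.1 RPM) were present. The sums were 20.4 to 113 RPM in WT and 34.9 to 466 RPM in MOG KO. Pecam1 was highest in MOG KO replicate 1, where Cdh5, another endothelial marker, was at 0.231 RPM. Pdpn and Lyve1 had 0 counts.

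Genes with the most similar profile over the 6 libraries were sought for the 2 members of highest mean RPM, by Pearson correlation of log2(RPM + 1) against the other 4087 tested genes. For Fgl2 these were Akt1 and Rnf5 (r = 0.997 for each), both lowest in MOG KO replicate 2 (2.29 and 0.688 RPM). For Nt5e they were Vdac3 (r = 0.999) and Cyfip1 (r = 0.997), both lowest in MOG KO replicate 3 (0 and 0.869 RPM). With 6 libraries and so many genes the highest correlations are close to 1 by selection, so these names describe profiles only.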

How the data were processed

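RNA was measured in 3 WT and 3 MOG KO libraries, grouped and numbered by their titles. Per the labels' protocols, RNA of 500 cells was copied into cDNA with a SMARTer kit, amplified by 15 PCR cycles and read as 100-base single reads, with no molecular identifiers. The deposited counts are whole reads in exons per gene. The deposited RPM values are those counts scaled to 1000000 per library (largest difference 4.55e-11). STAR 2.3.1, R 3.2.2 and mm10 are named, with no role or order, per the submitters' processing notes. How reads were counted (function, gene models, strand, multiple mapping) is not given in the sources used here.

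All genes were fitted in edgeR 4.0.16 (R 4.3.3) with filterByExpr (4088 of 23725 genes kept), TMM scaling, a robust quasi-likelihood test of genotype and Benjamini-Hochberg adjustment at 0.05. SE is the absolute log2 fold change over the square root of F. The edgeR, DESeq2 and limma-voom fits were first tested on simulated counts of low spread. Those counts did not switch between present and absent within a genotype, so that test does not cover this feature of the data. Alternatives were DESeq2 size factors, no filter, 50 counts in 3 libraries, DESeq2 1.42.0, limma-voom (limma 3.58.1), a replicate block, leaving out each library, and presence at 3 or 30 RPM. Coordinates and union exon lengths come from GENCODE M21 basic (GRCm38, the assembly of mm10), matched by Entrez ID for 97.3% of genes present somewhere. Upstream sequences are from RefSeq (9 of 10 members matched). Genes named by rule are the members, the 2 of smallest p in each pathway list, present markers (at most 5, otherwise the 3 of highest mean), and the 2 nearest profiles. Other genes in the text, such as Foxp3, Ctla4, Maf, Gata3, Lgals1, Icos, Ada, Egfr, Il12a and Il27, were picked outside these rules. The members, lists and rules were chosen with earlier results of these data known, and lists were described by counts with no set test.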

Additional observations from a re-analysis of the deposited data

How the results depend on the processing

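Each of the 5 tested members was refitted under 12 alternatives, and in all 60 fits 0 passed the threshold (lowest adjusted p 0.618). Direction held in 58. The 2 exceptions were Nt5e, whose log2 fold change ranged from -1.12 to 0.27 when 1 library was left out. DESeq2 called 271 genes higher and 473 lower where edgeR called 0 in each direction, and the cause was not tested. The other alternatives called 0 genes. With the replicate block 0 genes passed in either direction, and the fold changes were 2.47 for Gzmb, 1.43 for Lgals9, -0.79 for Nt5e, -1.14 for Fgl2 and -1.33 for Ebi3. Deviations of same-numbered libraries from their group means had correlations of -0.02, -0.0022 and -0.02 over genes. Differently numbered pairs gave -0.016 to 0.037. The labels do not say what the numbers stand for, and these values cannot tell whether same-numbered libraries were handled together. The number of members present in all 6 libraries was 1 at 3, 10 and 30 RPM. With limma-voom the values moved away from 0, to 3.15 for Gzmb, 1.96 for Lgals9, -1.91 for Nt5e, -1.21 for Fgl2 and -2.83 for Ebi3. Leaving out 1 library gave 1.22 to 2.2 for Gzmb, 0.14 to 1.22 for Lgals9, -1.01 to -0.02 for Fgl2 and -8.35 to -0.88 for Ebi3. In the libraries that held them, the 5 tested members spread by 15.1% to 50.2% of their mean, against 2.35% to 4.67% from counting alone, while Entpd1, Prf1, Il10, Gzma and Areg are limited by counts at or near 0 in most libraries.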
